A study of Aspergillus nidulans with 6 samples.

Results

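Among the genes whose RNA differed between a celAΔ strain of Aspergillus nidulans and its control strain, 51 of 1375 carry an annotation of signalling, cytoskeleton or growth machinery. They were chosen by words in the deposited annotation alone. These were protein kinase, GTPase, G protein, receptor, cyclin, calmodulin, tubulin, actin followed by a hyphen, myosin, kinesin and septin. The other words were ribosom, translation, tRNA, RNA helicase, DNA replication, DNA repair, histone, polymerase and ubiquitin. Of 53 genes with such a word, 2 were dropped because they also carried the words methyltransferase or transcription factor. A filamentous fungus grows by extending hyphae at their tips. Microtubules, built from alpha and beta tubulin, carry cargo towards the tip and form the mitotic spindle, and small GTPases and protein kinases pass on the signals that set growth. New cytoplasm needs tRNA synthetases, which load amino acids onto tRNAs, and translation factors, and new nuclei need histones to package the replicated DNA.

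RNA-Seq had been performed on mycelium of 3 celAΔ cultures and 3 control cultures. celAΔ was made by replacing the whole celA locus, which is thought to encode a mixed linkage glucan synthase of the cell wall, with the argB marker, and the sample labels call its genotype "downregulated celA-". The control is the recipient strain SAA.111 (veA1; biA1; ΔargB::trpC; riboB2; pyroA4; wA3), so both strains share those other markers while only celAΔ has argB restored, and the deletion and the marker cannot be told apart. All celAΔ cultures derive from 1 stable transformant, and all cultures grew for 3 days at 37 °C in liquid minimal medium with 0.4% glucose and 10 mM ammonium tartrate. celA had 33, 38 and 36 unique reads in the celAΔ libraries, against 198, 197 and 111 in the control libraries, and argB had 8150, 15329 and 11624 reads against 4, 4 and 2. celA reads were thus fewer in celAΔ but not absent. The study names heterokaryons remaining in the cultures as their probable source, which was not tested here. Mapped totals were 4176645 to 5205011 reads in the celAΔ libraries and 3300251 to 3706233 in the control libraries. The table holds only genes that the authors had selected on these same libraries for a p-value and a change of at least 2-fold (the smallest ratio of mean RPKM is 2.00), so a difference between the strains in any of the 51 genes is no independent evidence. Control replicate 3 stands apart from control replicates 1 and 2. In 74.5% of the listed genes it was the control library nearest to celAΔ, and results that rest on it are given with and without it.

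Of the 51 listed genes, more were lower than higher in celAΔ. By the mean of the deposited RPKM values (reads scaled to gene length and mapped reads), 32 of the 51 genes were lower and 19 were higher in celAΔ. edgeR called 49 of them at a Benjamini-Hochberg (BH) adjusted p under 0.05 and an absolute log2 fold change (log2 FC, celAΔ over control) over 1, beside 93.6% of all listed genes. Of these, 17 rose (11 without control replicate 1, and 11 without control replicate 2), beside 41.1% of all listed genes, and 32 fell, beside 52.5%. The libraries of the strains did not overlap for any of the 51 genes, and this holds for 99.3% of the table. These shares are near those of the table, so the numbers of calls say little that is particular to these genes. The median log2 FC was -1.08 over the 51 genes (-1.07 with genes at 0 reads in 1 strain set at their bound) and -1.04 over all listed genes, and the median absolute log2 FC was 1.24 against 1.80. Fewer cells of one kind and less RNA per cell cannot be told apart in such bulk libraries.

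A stricter adjustment, over all 10516 loci of the assembly with the loci outside the table given a p-value of 1, left 11 of the 51 genes, beside 38.1% of the listed genes. It left 5 higher genes, beside 12.5% of the table, and 6 lower genes, beside 25.6%. The 6 lower ones were histone H2A, the histone H4-like gene, asparaginyl-tRNA synthetase, an amidotransferase subunit, a ubiquitin conjugating enzyme and ferricrocin synthetase. The 5 higher ones were a protein kinase domain protein, another ubiquitin conjugating enzyme, Qde2, the nonribosomal peptide synthase ANIA_09226 and a myosin-cross-reactive antigen. The amidotransferase subunit and this synthase had few reads, 0 against 10 and 17 against 0 (celAΔ against control). For them only bounds of 1.47-fold and 1.43-fold can be given.

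The size of most of the falls depended on how the libraries were scaled. When libraries were instead set equal at the median listed gene, the median log2 FC of all genes moved up by 0.67. The listed genes had been selected for a change, and 733 of the 1375 were lower by mean RPKM. Scaling on them by itself makes falls smaller, so it cannot decide how large the falls were. TMM factors, another scaling of the libraries, moved the median by -0.0051. They left 49 calls among the 51 genes, beside 91.71% of all listed genes. These factors were computed from the same selected genes, so they cannot decide the size of the falls either. Under the scaling to the median listed gene, no gene changed direction. All 17 higher genes kept their calls, but only 3 of the 32 lower genes did. These lower ones were the histone H4-like gene, the amidotransferase subunit and ferricrocin synthetase. The amidotransferase subunit had 0 reads in celAΔ and 10 in the control, so only a bound of 1.47-fold can be given for it. The falls below are therefore given as changes per mapped read. Reads on the 51 genes made up 1.13%, 1.03% and 1.03% of the mapped reads in the celAΔ libraries. In the control libraries they made up 0.929%, 0.934% and 0.981%, without overlap. All listed genes made up 19.7%, 21.9% and 21.8%, against 14.9%, 15.1% and 15.1%. ANIA_05480, ANIA_00287 and ANIA_00314 had 8807, 8658 and 7044 of the 52245 reads on the 51 genes in celAΔ replicate 1. In control replicate 1 they had 341, 2006 and 524 of 34430. In control replicate 3 they had 5277, 2238 and 4139 of 35377. The higher share thus rests largely on a few abundant genes, while 32 of the 51 were lower.

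**Figure D1:**
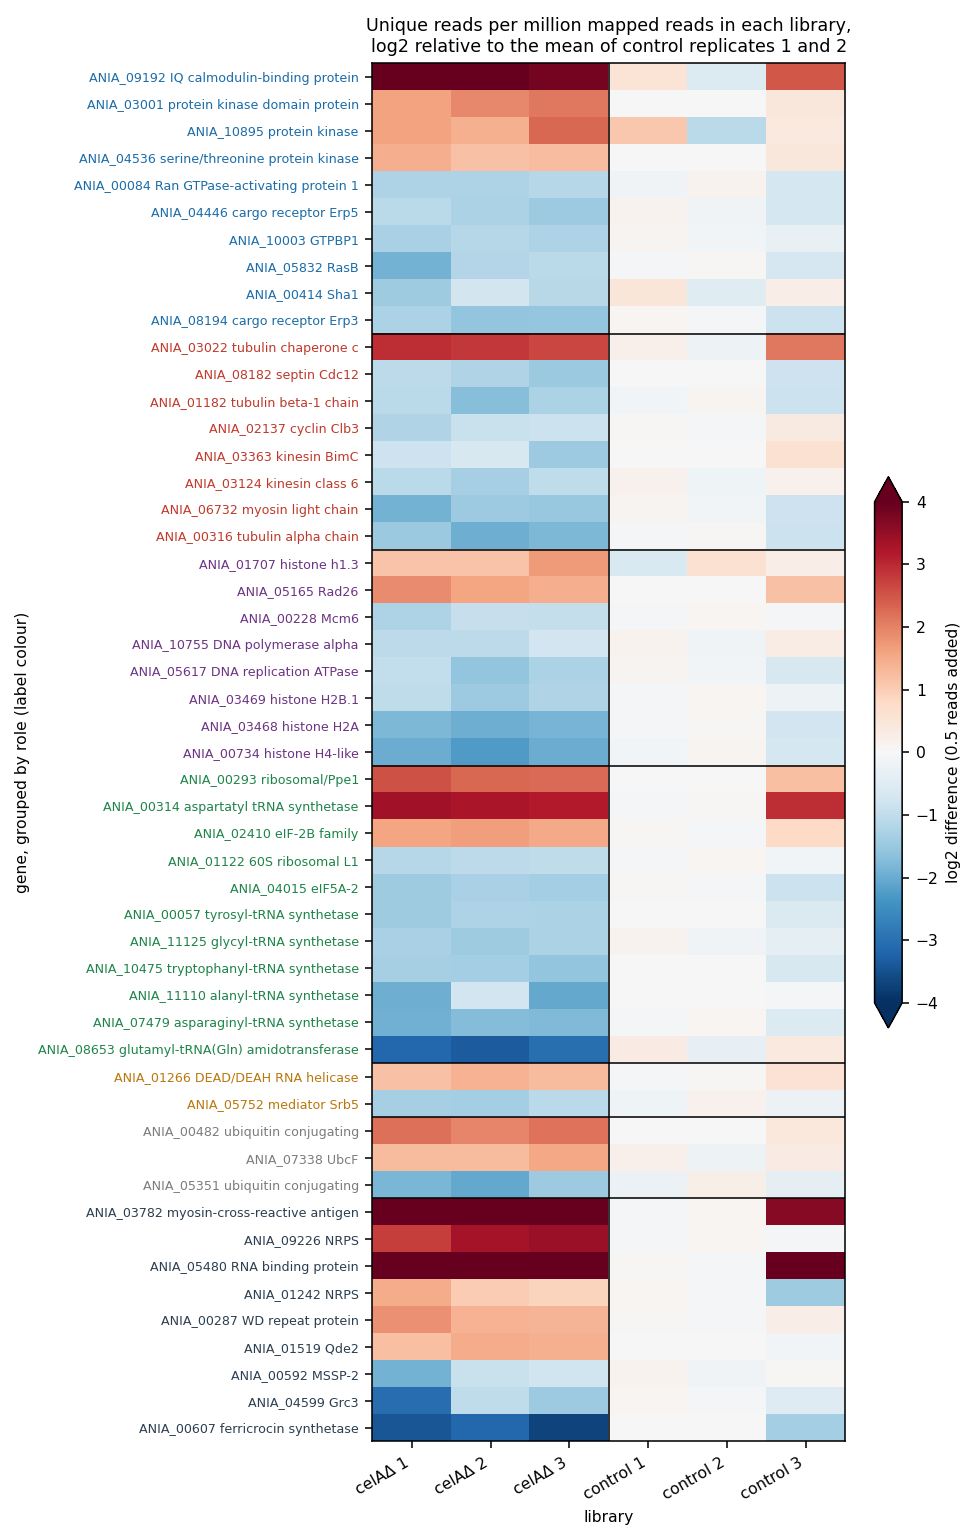
Unique reads per mapped read of the 51 genes (one gene a line, grouped by role and coloured by it) in each of the 6 libraries (columns, celAΔ left), as the log2 difference from the mean of control replicates 1 and 2 with 0.5 reads added. The 32 lower genes are blue in all celAΔ columns, and the column of control replicate 3 is tinted towards celAΔ in many of them but not in the mitotic genes BimC and Clb3.

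Among the lower genes, histones H2A and H2B.1 and a translation factor had the highest mean RPKM in both strains. Histones H2A and H2B pair with each other, and with H3 and H4 they form the core of the nucleosome. Histone H2A (ANIA_03468) had 1022, 931 and 984 RPKM in the celAΔ libraries, against 3467, 3706 and 2094 RPKM in the control libraries. H2B.1 (ANIA_03469), its neighbour on chromosome VI, had 1057, 781 and 941 RPKM in celAΔ, against 2035, 2289 and 1879 RPKM in the control. The gene similar to histone H4 (ANIA_00734, chromosome VIII) had 132, 109 and 130.5 RPKM in celAΔ, against 479, 565 and 316 RPKM in the control. Every celAΔ library was below every control library for each of these histones, and control replicate 3 was the lowest control for all of them. H2A fell with a log2 FC of -1.66 ± 0.36 (SE, n = 3 libraries per strain; edgeR BH-adjusted p = 0.00621), and the H4-like gene with a log2 FC of -1.87 ± 0.33 (edgeR BH-adjusted p = 0.00311). H2B.1 fell with a log2 FC of -1.16 ± 0.32 (edgeR BH-adjusted p = 0.0125), and its call was lost without celAΔ replicate 2 (log2 FC -1.05 in that fit).

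Ratios within each library set the partner histones side by side. The ratio of H2A to H2B.1 RPKM was 0.967, 1.19 and 1.05 in the celAΔ libraries, against 1.70, 1.62 and 1.11 in the control libraries. The celAΔ ratios overlap with that of control replicate 3 and lie below those of the other controls. The ratio of H2A to the H4-like gene was 7.75, 8.54 and 7.54 in celAΔ, against 7.24, 6.56 and 6.62 in the control, with all celAΔ ratios higher. No test of these ratios was made, and with 3 libraries against 3 an exact permutation test could not go below p = 0.1.

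The linker histone went the other way. Linker histones of the H1 family bind the DNA between nucleosomes. The gene annotated as histone h1.3 (ANIA_01707) had 8.70, 8.62 and 12.9 RPKM in celAΔ, against 2.42, 5.89 and 4.56 RPKM in the control. It rose with a log2 FC of 1.23 ± 0.40 (edgeR BH-adjusted p = 0.0205). This rests on few reads, 27, 30 and 36 in celAΔ and 6, 13 and 11 in the control, and the call was lost without celAΔ replicate 3 or control replicate 1 (log2 FC 1.02 and 0.94 in those fits).

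Genes of DNA replication were lower in celAΔ at low levels. Mcm6 (ANIA_00228), a subunit of the helicase that unwinds DNA ahead of the replication fork, had 6.35, 7.90 and 7.67 RPKM in celAΔ, against 14.2, 15.9 and 14.6 RPKM in the control. DNA polymerase alpha (ANIA_10755), whose catalytic subunit extends the primers that start each new strand, had 8.32, 8.29 and 9.95 RPKM in celAΔ, against 19.0, 15.4 and 21.0 RPKM in the control. The DNA replication ATPase ANIA_05617 had 17.5, 11.6 and 14.2 RPKM in celAΔ, against 37.4, 31.9 and 22.4 RPKM in the control. In Mcm6 the controls lie close together, in DNA polymerase alpha control replicate 3 is the highest control, and in the ATPase it is the lowest. The log2 FC was -1.03 ± 0.26 for Mcm6, -1.06 ± 0.28 for DNA polymerase alpha and -1.08 ± 0.32 for the ATPase (edgeR BH-adjusted p = 0.00925, 0.0106 and 0.0152). All of them are near the threshold of 2-fold. Mcm6 lost its call without celAΔ replicate 1 or control replicate 2 (lowest size -0.94), DNA polymerase alpha without control replicate 3 (-0.96), and the ATPase without celAΔ replicate 2, celAΔ replicate 3 or control replicate 1 (lowest size -0.91).

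Rad26 (ANIA_05165), annotated as a DNA repair protein, was the remaining higher gene among those of DNA. It had 69.9, 56.3 and 51.5 RPKM in celAΔ, against 18.7, 19.1 and 42.8 RPKM in the control, where replicate 3 is more than both other controls and closer to celAΔ. Rad26 rose with a log2 FC of 1.14 ± 0.41 (edgeR BH-adjusted p = 0.03) and of 1.65 without control replicate 3. Leaving out any other library ended the call (lowest log2 FC 0.94).

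The tubulins fell and a tubulin chaperone rose. Alpha tubulin (ANIA_00316) had 138, 98.3 and 110.1 RPKM in the celAΔ libraries, against 372, 395 and 211 RPKM in the control libraries. Tubulin beta-1 (ANIA_01182) had 84.8, 54.7 and 75.4 RPKM in celAΔ, against 166, 195 and 100.2 RPKM in the control. Both tubulins were lowest among the controls in replicate 3, though still above every celAΔ library. Alpha tubulin fell with a log2 FC of -1.50 ± 0.37 (edgeR BH-adjusted p = 0.00915) and kept its call whichever library was left out. Beta-1 fell with a log2 FC of -1.10 ± 0.37 (edgeR BH-adjusted p = 0.0235), and its call was lost without celAΔ replicate 2, celAΔ replicate 3, control replicate 1 or control replicate 2 (log2 FC between -1.14 and -0.90 in those fits). The ratio of alpha to beta-1 tubulin RPKM was 1.63, 1.80 and 1.46 in celAΔ, against 2.24, 2.03 and 2.11 in the control, lower in all celAΔ libraries. Here control replicate 3 lies with the other controls.

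Tubulin-specific chaperone c (ANIA_03022) belongs to the folding cofactors that join alpha and beta tubulin into dimers. It had 502, 468 and 421 RPKM in celAΔ, against 74.9, 56.9 and 284 RPKM in the control, so that control replicate 3 lies between the other controls and celAΔ. It rose with a log2 FC of 1.74 ± 0.63 (edgeR BH-adjusted p = 0.0309) and of 2.81 without control replicate 3. The call was lost when any library other than control replicate 3 was left out (lowest log2 FC 1.37). Alp11 (ANIA_05116), which in fission yeast is a tubulin folding cofactor too and is no member of the 51, had 9.48, 12.0 and 14.9 RPKM in celAΔ, against 23.7, 27.0 and 23.4 RPKM in the control, and fell with a log2 FC of -1.03 ± 0.29 (edgeR BH-adjusted p = 0.0131). The chaperones of tubulin thus include 1 gene that rose and 1 that fell.

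The motor and filament genes were all lower in celAΔ. The putative myosin light chain (ANIA_06732), which by its name binds the neck of a myosin motor, had 128, 171 and 164 RPKM in celAΔ, against 513, 433 and 268 RPKM in the control. Septin Cdc12 (ANIA_08182, aspC), of the family of filaments that gather at septa, had 180.1, 161 and 131 RPKM in celAΔ, against 368, 372 and 211 RPKM in the control. In both, control replicate 3 was the lowest control and lay above all celAΔ libraries. The myosin light chain fell with a log2 FC of -1.39 ± 0.35 (edgeR BH-adjusted p = 0.00903) and kept its call whichever library was left out. The septin fell with a log2 FC of -1.01 ± 0.36 (edgeR BH-adjusted p = 0.0288), at the edge of the threshold: its call was lost without celAΔ replicate 2, celAΔ replicate 3, control replicate 1 or control replicate 2 (lowest size -0.88).

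The mitotic motors and the cyclin showed another pattern among the controls. BimC (ANIA_03363), a kinesin that pushes the spindle poles apart, had 7.52, 8.59 and 4.85 RPKM in celAΔ, against 13.1, 13.6 and 20.2 RPKM in the control. The class 6 kinesin (ANIA_03124), whose animal counterparts act at the spindle midzone in cytokinesis, had 8.29, 7.07 and 8.71 RPKM in celAΔ, against 20.1, 15.5 and 19.7 RPKM in the control. Clb3 (ANIA_02137), a putative cyclin of G2 and mitosis, had 21.4, 26.6 and 27.4 RPKM in celAΔ, against 51.7, 47.9 and 63.7 RPKM in the control. For BimC and Clb3 control replicate 3 was the highest library of all, away from celAΔ, and for the class 6 kinesin it lay between the other controls. BimC fell with a log2 FC of -1.16 ± 0.34, the class 6 kinesin of -1.20 ± 0.27 and Clb3 of -1.11 ± 0.28 (edgeR BH-adjusted p = 0.0152, 0.00663 and 0.00979). Without control replicate 3 the log2 FC was -0.92 for BimC and -0.99 for Clb3, under 2-fold, and BimC also lost its call without celAΔ replicate 3 (-0.95). The class 6 kinesin kept its call in every such fit.

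**Figure D2:**
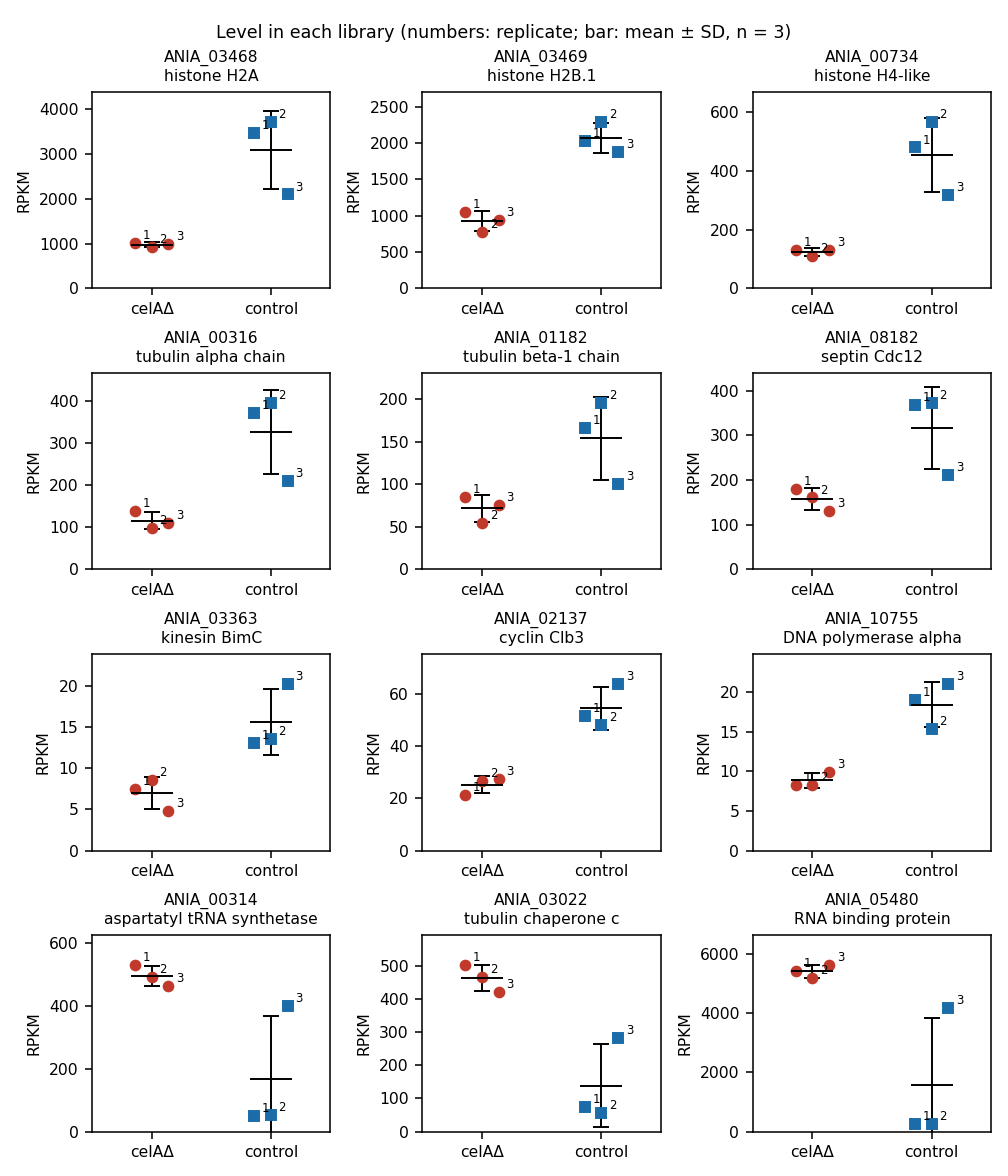
RPKM in each library (vertical axis, from 0) of 12 genes, celAΔ libraries (circles) left and control libraries (squares) right, each marked with its replicate number, with the mean ± SD (n = 3; where the SD is larger than the mean, its bar is cut at 0). Histones, tubulins and the septin have control replicate 3 as the lowest control, BimC, Clb3 and DNA polymerase alpha as the highest, and in the genes of the last line it lies between the other controls and celAΔ.

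A further 12 listed genes of the cytoskeleton and mitosis, found by other annotation words and not counted among the 51, were called in all cases, 3 higher and 9 lower in celAΔ. Of all listed genes, which had been selected for a change, 93.6% were called, 41.1% higher and 52.5% lower. Beside a median log2 FC of -1.04 over all listed genes, that of the 12 genes was -1.10. The lower ones included Cdc20 (ANIA_00814), which activates the ubiquitin ligase that ends mitosis, with 4.06, 3.72 and 4.51 RPKM in celAΔ, against 19.9, 18.3 and 18.5 RPKM in the control. A putative aurora kinase (ANIA_05815), of a family that acts on chromosomes and the spindle, had 15.6, 26.8 and 28.5 RPKM in celAΔ, against 82.8, 72.9 and 74.5 RPKM in the control. The spindle checkpoint gene similar to SldA (ANIA_03946) had 5.37, 5.21 and 4.98 RPKM in celAΔ, against 12.3, 11.6 and 19.2 RPKM in the control. The log2 FC was -2.20 ± 0.26 for Cdc20, -1.70 ± 0.33 for the aurora kinase and -1.47 ± 0.31 for the SldA-like gene (edgeR BH-adjusted p = 0.0013, 0.0042 and 0.0053), and these 3 passed the adjustment over all loci too, as did 1 gene of the list that rose, Cwf26. In the SldA-like gene control replicate 3 is again the highest library.

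The other lower genes of that list were Alp11, given above, profilin (ANIA_02484, log2 FC -1.43 ± 0.40), which binds actin monomers, Nif1 (ANIA_00302, -1.13 ± 0.35), the spindle pole body protein Cdc31 (ANIA_05618, -1.12 ± 0.28), the nuclear movement protein NudC (-1.08 ± 0.35) and the Arp1 subunit of dynactin (ANIA_01953, -1.03 ± 0.30), the partner complex of the dynein motor. Profilin had 325, 240.2 and 285 RPKM in celAΔ, against 884, 971 and 429 RPKM in the control, with control replicate 3 far below the other controls. The 3 that rose were Cwf19 (ANIA_05535, log2 FC 1.87 ± 0.49), Cwf26 (ANIA_07184, 1.51 ± 0.32) and Cro1 (ANIA_00135, 1.02 ± 0.30). Cwf19 and Cwf26 are annotated as cell cycle control proteins, and their fission yeast counterparts are known from splicing complexes. Cdc31 lies next to the DNA replication ATPase ANIA_05617 in the assembly, and both fell.

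In signalling, 4 genes rose and 6 fell, all past the threshold, beside 41.1% and 52.5% of all listed genes. The protein kinase domain protein ANIA_03001 had 96.2, 118 and 136 RPKM in celAΔ, against 31.4, 30.9 and 42.3 RPKM in the control, with no overlap. The serine/threonine protein kinase ANIA_04536 had 109, 88.6 and 93.5 RPKM in celAΔ, against 39.9, 39.4 and 54.6 RPKM in the control. The IQ motif gene ANIA_09192, named for the motif that binds the calcium sensor calmodulin, had 75.3, 44.5 and 36.1 RPKM in celAΔ, against 3.64, 1.63 and 14.2 RPKM in the control. In all of them control replicate 3 was the highest control, and in ANIA_09192 by the largest ratio. ANIA_03001 rose with a log2 FC of 1.74 ± 0.31 (edgeR BH-adjusted p = 0.00311) and ANIA_04536 with 1.12 ± 0.31 (edgeR BH-adjusted p = 0.013), and ANIA_04536 lost its call without control replicate 1 or 2 (log2 FC 1.05 and 1.04). ANIA_09192 rose with a log2 FC of 2.99 ± 0.75 (edgeR BH-adjusted p = 0.00909), and of 4.27 without control replicate 3.

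Another protein kinase, ANIA_10895, was barely detected, with 4, 4 and 6 reads in celAΔ and 2, 0 and 1 in the control. The ratio of summed reads per mapped read was 3.53 (95% exact interval 0.986 to 19.2, counting error only). The edgeR call (BH-adjusted p = 0.0449) was kept only when control replicate 1 was left out, and adjusted p was 0.0875 without control replicate 3. At this depth the counting interval includes no change.

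RasB, a Ran regulator and the GTP binding protein GTPBP1 fell. RasB (ANIA_05832), a Ras GTPase, had 13.4, 21.8 and 23.3 RPKM in celAΔ, against 47.8, 51.8 and 31.5 RPKM in the control. The Ran-specific GTPase-activating protein 1 (ANIA_00084), named for the GTPase that drives transport through nuclear pores, had 215, 216 and 228 RPKM in celAΔ, against 459, 551 and 310.3 RPKM in the control. The GTP binding protein GTPBP1 (ANIA_10003) had 30.6, 34.2 and 32.2 RPKM in celAΔ, against 80.7, 70.5 and 61.7 RPKM in the control. Control replicate 3 was the lowest control in each. RasB fell with a log2 FC of -1.16 ± 0.34, the Ran regulator of -1.003 ± 0.34 and GTPBP1 of -1.13 ± 0.28 (edgeR BH-adjusted p = 0.0154, 0.023 and 0.00851). GTPBP1 kept its call whichever library was left out, RasB lost it without celAΔ replicate 1 or control replicate 2 (lowest size -0.95), and the Ran regulator lost it without any library other than control replicate 3 (lowest size -0.81).

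Erp3 and Erp5 are annotated as endosomal cargo receptors, and in budding yeast their namesakes belong to the p24 family, which works in vesicles between the endoplasmic reticulum and the Golgi. Erp3 (ANIA_08194) had 109, 88.0 and 90.0 RPKM in celAΔ, against 273, 249.9 and 145 RPKM in the control. Erp5 (ANIA_04446) had 171, 152 and 134 RPKM in celAΔ, against 406, 328 and 224 RPKM in the control. The 2 genes share the order of the controls, with replicate 3 lowest. Erp3 fell with a log2 FC of -1.22 ± 0.34 and Erp5 of -1.07 ± 0.34 (edgeR BH-adjusted p = 0.0127 and 0.0194). Erp3 lost its call without celAΔ replicate 2 or 3 (log2 FC -1.17 and -1.18), and Erp5 without celAΔ replicate 2, celAΔ replicate 3, control replicate 1 or control replicate 2 (lowest size -0.86).

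The calmodulin-binding gene Sha1 (ANIA_00414) was the last of the lower signalling genes. It had 1.90, 3.13 and 2.36 RPKM in celAΔ, against 7.24, 3.70 and 6.31 RPKM in the control, where control replicate 2 comes close to celAΔ. Sha1 fell with a log2 FC of -1.22 ± 0.36 (edgeR BH-adjusted p = 0.0157), and the call was lost without celAΔ replicate 1, celAΔ replicate 3 or control replicate 1 (lowest size -1.02).

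Of 9 other listed signalling genes, not all of which are named here, 1 rose and 4 fell past the threshold. Over all listed genes 41.1% rose and 52.5% fell past it. The 4 that fell were the FKBP12-like protein of TOR signalling (ANIA_03598, log2 FC -1.46 ± 0.37), the regulatory protein Vps15 (ANIA_00576, -1.12 ± 0.32), a Ras exchange protein (ANIA_04369, -1.09 ± 0.33) and a phosphotyrosine phosphatase (ANIA_10570, -1.02 ± 0.30). Both RasB and a Ras exchange protein were thus lower.

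A sensor histidine kinase, a protein phosphatase and Syg1 did not pass the test with all libraries and passed it without control replicate 3. The sensor histidine kinase ANIA_06820 had 359, 255 and 255 RPKM in celAΔ, against 6.01, 8.08 and 133 RPKM in the control. The protein phosphatase ANIA_02472 had 128, 281 and 262 RPKM in celAΔ, against 0, 0.618 and 62.5 RPKM in the control. Both are many times higher in control replicate 3 than in the other controls. With all libraries the log2 FC was 2.56 ± 1.15 and 3.41 ± 1.70, and for Syg1 (ANIA_04733) it was 1.08 ± 0.46 (edgeR BH-adjusted p = 0.0621, 0.0853 and 0.0507). Without control replicate 3, it was 5.36 for the histidine kinase and 1.74 for Syg1.

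The listed tRNA synthetases, all selected for a change, were lower in celAΔ with 1 exception. Asparaginyl-tRNA synthetase (ANIA_07479) had 23.9, 27.3 and 26.8 RPKM in celAΔ, against 86.3, 95.4 and 62.4 RPKM in the control. Glycyl-tRNA synthetase (ANIA_11125) had 27.0, 24.7 and 27.3 RPKM in celAΔ, against 72.1, 60.3 and 50.1 RPKM in the control. Tyrosyl-tRNA synthetase (ANIA_00057) had 29.2, 33.3 and 32.7 RPKM in celAΔ, against 78.0, 79.7 and 52.7 RPKM in the control. These enzymes had similar levels within each strain, and control replicate 3 was the lowest control in each. Tryptophanyl-tRNA synthetase (ANIA_10475) had 41.4, 39.9 and 34.4 RPKM in celAΔ, against 102, 105 and 66.8 RPKM in the control. Alanyl-tRNA synthetase (ANIA_11110) had 1.52, 3.61 and 1.41 RPKM in celAΔ, against 6.33, 6.05 and 5.86 RPKM in the control, from at most 20 reads in any library.

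All 5 of these synthetases fell, and each kept its call whichever library was left out. Asparaginyl-tRNA synthetase fell most and was the one that also passed the adjustment over all loci, with a log2 FC of -1.65 ± 0.30 (edgeR BH-adjusted p = 0.00348). The log2 FC was -1.21 ± 0.29 for the glycyl, -1.14 ± 0.29 for the tyrosyl, -1.24 ± 0.31 for the tryptophanyl and -1.44 ± 0.41 for the alanyl enzyme (edgeR BH-adjusted p = 0.00769, 0.00991, 0.0089 and 0.0141). Their median log2 FC was -1.24. The synthetase that rose is left out of this median, and all listed genes had been selected for a change of at least 2-fold. A median fall of about 2-fold or more therefore follows from the choice of genes. The 32 lower genes, which include these 5, had a median log2 FC of -1.17.

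The exception was ANIA_00314, annotated as an aspartatyl tRNA synthetase. The assembly gives it the symbol erdS, and in Aspergillus fumigatus the enzyme of that name attaches aspartate to ergosterol, using aspartate carried by a tRNA. It had 529, 491 and 464 RPKM in celAΔ, against 49.2, 52.9 and 399.7 RPKM in the control: control replicates 1 and 2 lay far below celAΔ, and control replicate 3 just below it. The log2 FC of 1.56 ± 0.83 was not past the threshold with all libraries (edgeR BH-adjusted p = 0.101) and was 3.28 without control replicate 3 (edgeR BH-adjusted p = 3.08e-06). The gene lies 2 loci from alpha tubulin on chromosome VIII, which was lower in celAΔ.

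The other genes grouped under translation by their annotation words moved in both directions. Translation initiation factor 5A-2 (ANIA_04015), which helps ribosomes past stretches of sequence that are hard to translate, had 1171, 1282 and 1233 RPKM in celAΔ, against 3272, 3019 and 1734 RPKM in the control. The 60S ribosomal protein L1 (ANIA_01122) had 191, 203 and 208 RPKM in celAΔ, against 403, 441 and 394 RPKM in the control. Factor 5A-2 ranked second in RPKM among the 51 genes in both strains. It fell with a log2 FC of -1.12 ± 0.37 and L1 fell with -1.04 ± 0.29 (edgeR BH-adjusted p = 0.0224 and 0.0119). Factor 5A-2 lost its call without any library other than control replicate 3 (lowest size -0.95), and L1 lost it without control replicate 2 (-0.99).

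Of the 11 genes grouped under translation, 2 rose and 8 fell past the threshold, beside 41.1% and 52.5% of all listed genes. The 2 that rose were an eIF-2B family gene and ANIA_00293, which may not be a ribosomal gene. The eIF-2B subunit family gene (ANIA_02410) had 330.0, 350.3 and 316 RPKM in celAΔ, against 115, 105 and 191 RPKM in the control. ANIA_00293, annotated as a ribosomal protein or the carboxylic ester hydrolase Ppe1 and named ppe1 in the assembly, had 157, 133 and 129 RPKM in celAΔ, against 27.6, 26.5 and 62.1 RPKM in the control. In both, control replicate 3 was the highest control. The log2 FC was 1.28 ± 0.36 for the eIF-2B family gene and 1.85 ± 0.42 for ppe1 (edgeR BH-adjusted p = 0.0131 and 0.00671), and the eIF-2B family gene lost its call without control replicate 1 or 2 (lowest log2 FC 1.12). The glutamyl-tRNA(Gln) amidotransferase subunit A (ANIA_08653) had 0 reads in every celAΔ library and 4, 2 and 4 in the control libraries. Against 3 reads per celAΔ library, its RNA was at least 1.47-fold lower in celAΔ.

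Few genes of protein turnover were listed. Ubiquitin conjugating enzymes hand ubiquitin on to proteins, often with a ubiquitin ligase. ANIA_00482 had 80.6, 68.0 and 79.0 RPKM in celAΔ, against 17.2, 17.6 and 23.1 RPKM in the control. UbcF (ANIA_07338) had 56.4, 57.5 and 69.8 RPKM in celAΔ, against 27.1, 20.5 and 29.5 RPKM in the control. ANIA_05351 had 27.6, 23.9 and 35.4 RPKM in celAΔ, against 83.0, 116 and 75.5 RPKM in the control. The first pair rose and ANIA_05351 fell, with the strains apart in all 3 genes and control replicate 3 near the other controls. The log2 FC was 1.98 ± 0.31 for ANIA_00482, 1.25 ± 0.29 for UbcF and -1.66 ± 0.31 for ANIA_05351 (edgeR BH-adjusted p = 0.00222, 0.007 and 0.00403), and all 3 kept their calls whichever library was left out.

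The DEAD/DEAH box RNA helicase ANIA_01266, of a class that unwinds RNA, had 67.7, 78.5 and 72.0 RPKM in celAΔ, against 29.5, 30.9 and 45.3 RPKM in the control. The mediator subunit Srb5 (ANIA_05752), of the complex that links transcription factors to RNA polymerase II, had 10.3, 10.1 and 12.3 RPKM in celAΔ, against 23.0, 29.2 and 21.9 RPKM in the control. The helicase rose and Srb5 fell. The log2 FC was 1.05 ± 0.32 for the helicase and -1.18 ± 0.28 for Srb5 (edgeR BH-adjusted p = 0.017 and 0.00765), and the helicase lost its call without celAΔ replicate 2, celAΔ replicate 3, control replicate 1 or control replicate 2 (lowest log2 FC 0.93).

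**Figure D3:**
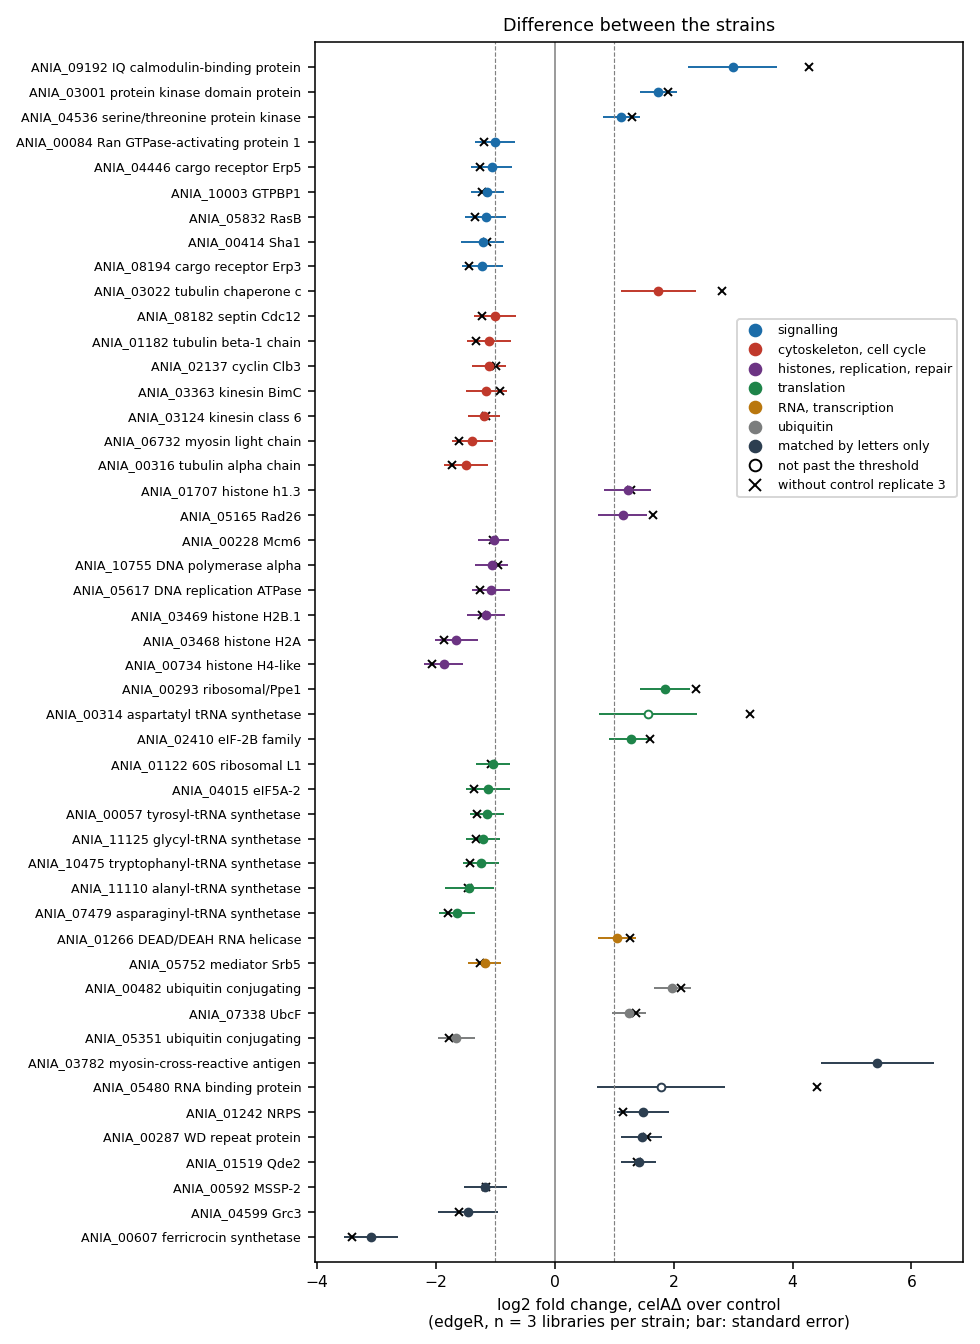
Log2 fold change (horizontal axis, celAΔ over control) with its standard error for 48 of the 51 genes, those with at least 10 reads in some library, from edgeR with 3 libraries per strain, coloured by role. Open circles are the 2 genes not past the threshold, dashed lines mark a change of 2-fold, and crosses give the value without control replicate 3 (left out for ANIA_03782, which the other controls lack). Crosses lie far to the right of ANIA_09192, the tubulin chaperone, ANIA_00314 and ANIA_05480.

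A group of 9 of the 51 genes was matched by letters inside longer words rather than by function. Nonribosomal peptide synthases, which build peptides without ribosomes, matched "ribosom", and the myosin-cross-reactive antigen is no myosin. The 5 others have "g protein" as part of words such as "binding protein". GTPBP1 also matched by "g protein" alone, but as a GTP binding protein it was grouped under signalling and is not in this group. Of the 9 genes of this group, 5 rose and 3 fell past the threshold. Of the other 42 genes, 12 rose and 29 fell past the threshold. Over all listed genes 41.1% rose and 52.5% fell past it, and the difference between the groups was not tested.

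Ferricrocin synthetase (ANIA_00607, sidC), which makes the siderophore that stores iron inside Aspergillus cells, had 0.528, 0.646 and 0.436 RPKM in celAΔ, against 5.78, 5.79 and 2.23 RPKM in the control. It fell with a log2 FC of -3.09 ± 0.45 (edgeR BH-adjusted p = 0.0019), the largest fall of the 51 genes apart from the bound given for ANIA_08653. The synthase ANIA_01242 had 5.57, 4.01 and 3.70 RPKM in celAΔ, against 2.12, 1.88 and 0.745 RPKM in the control, and rose with a log2 FC of 1.49 ± 0.44 (edgeR BH-adjusted p = 0.0151), a call lost without celAΔ replicate 1 (log2 FC 1.29). Control replicate 3 was the lowest control for both synthases, towards celAΔ in the first and away from it in the second. The synthase ANIA_09226 had 4, 7 and 6 reads in celAΔ and 0 in every control library, so that its RNA was at least 1.43-fold higher in celAΔ against 3 reads per control library. The myosin-cross-reactive antigen (ANIA_03782), of a family whose bacterial members hydrate fatty acids, had 55, 179 and 127 reads in celAΔ, against 0, 0 and 6 in the control, and rose with a log2 FC of 5.43 ± 0.95 (edgeR BH-adjusted p = 0.003). This size rests on the 6 reads of control replicate 3. Without that library both controls are at 0, and the RNA was at least 30.1-fold higher in celAΔ against 3 reads per control library.

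Qde2 (ANIA_01519), named for the Argonaute protein of gene silencing in Neurospora, had 88.6, 109 and 104 RPKM in celAΔ, against 38.3, 39.0 and 36.1 RPKM in the control. The WD repeat gene ANIA_00287 had 571, 414 and 413 RPKM in celAΔ, against 166, 153 and 189.7 RPKM in the control. In Qde2 control replicate 3 was the lowest control and in the WD repeat gene the highest, both well apart from celAΔ. Qde2 rose with a log2 FC of 1.41 ± 0.29 and the WD repeat gene with 1.46 ± 0.34 (edgeR BH-adjusted p = 0.00533 and 0.00756), whichever library was left out. The RNA binding protein MSSP-2 (ANIA_00592) had 6, 14 and 12 reads in celAΔ, against 21, 15 and 19 in the control. Grc3 (ANIA_04599), in budding yeast a kinase of ribosomal RNA processing, had 1.76, 7.37 and 5.47 RPKM in celAΔ, against 15.7, 14.2 and 10.4 RPKM in the control. celAΔ replicate 1 was the lowest library in both genes. MSSP-2 fell with a log2 FC of -1.17 ± 0.37 and Grc3 of -1.46 ± 0.50 (edgeR BH-adjusted p = 0.0187 and 0.0255). MSSP-2 lost its call without celAΔ replicate 1 or control replicate 1 (lowest size -0.89), and Grc3 without celAΔ replicate 3, control replicate 1 or control replicate 2 (log2 FC between -1.55 and -1.33 in those fits).

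The RNA binding protein ANIA_05480 was the most abundant of the 51 genes in celAΔ by mean RPKM. It had 5409, 5171 and 5604 RPKM in the celAΔ libraries, against 262, 243 and 4168 RPKM in the control libraries. Its level in control replicate 3 is near that of celAΔ, and the spread of the controls exceeds their mean. The log2 FC of 1.79 ± 1.08 was not past the threshold with all libraries (edgeR BH-adjusted p = 0.139) and was 4.41 without control replicate 3 (edgeR BH-adjusted p = 1.49e-06).

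The place of control replicate 3 was then described gene by gene, on the log2 scale, with 0 at the mean of control replicates 1 and 2 and 1 at the mean of celAΔ. Its median was 0.300 over the 51 genes and 0.342 over all listed genes, and it was above 0.5 in 14 of the 51, or 27.5%, and in 33.2% of the table. Control replicate 3 was the control nearest to celAΔ in 38 of the 51 genes, the same 74.5% as in the table. The 51 genes therefore do not stand apart from the table in this respect. By role the median place was 0.498 in cytoskeleton and cell cycle genes, 0.442 in translation, 0.416 in signalling, 0.268 in histones, replication and repair and 0.213 in ubiquitin.

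Within the cytoskeleton the place ranged widely. It was 0.750 for the tubulin chaperone and between 0.493 and 0.654 for the tubulins, the septin and the myosin light chain, but -0.621 for BimC, -0.357 for Clb3 and -0.138 for the class 6 kinesin, which were singled out after their values were seen. DNA polymerase alpha was at -0.315, Mcm6 at 0.0379, the SldA-like gene at -0.565 and Cdc31 at -0.291. Of the 32 lower genes, control replicate 3 was above both other controls in 4 and below both in 24. Over the whole table it was above both in 13.8% and below both in 75.1% of the lower genes.

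**Figure D4:**
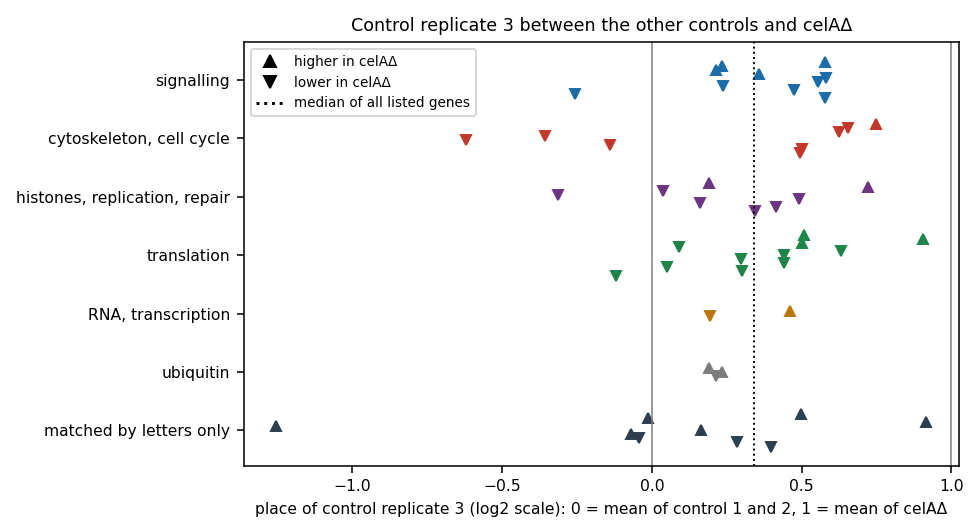
Place of control replicate 3 for each of the 51 genes (horizontal axis, 0 the mean of control replicates 1 and 2, 1 the mean of celAΔ, log2 scale), by role, with triangles pointing up for genes higher and down for genes lower in celAΔ. The dotted line is the median of all listed genes, 0.342, and BimC, Clb3 and DNA polymerase alpha lie left of 0.

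Genes of conidiation moved with control replicate 3. Conidia are the asexual spores, the other kind of cell that a mycelial culture can hold. For the 4 listed genes with such an annotation (flbD, ANIA_05086, ANIA_10628 and ANIA_05015), summed RPKM was 1623, 2517 and 3389 in the celAΔ libraries, against 41.0, 40.7 and 1247 in the control libraries. All 4 had reads in every library, except that ANIA_10628 was at 0 in control replicate 2. Their part in the values of ANIA_00314, ANIA_05480, the tubulin chaperone and the other genes that place control replicate 3 near celAΔ was not tested.

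The spread among the celAΔ libraries was smaller than among the controls. The median coefficient of variation of RPKM over genes was 12.1% in celAΔ and 25.2% in the control. Each covers the 50 genes with reads in the strain concerned. The control value includes control replicate 3, and the spread without that library was not computed. In celAΔ the highest mean RPKM belonged to ANIA_05480, followed by factor 5A-2, H2A and H2B.1. In the control the order was H2A, factor 5A-2, H2B.1 and ANIA_05480. The chromosomes of the assembly hold between 3 and 8 of the 51 genes each, except chromosome VIII with 17, and 26 of the genes have another listed gene within 2 loci.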

How the data were processed

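RNA of mycelium was sequenced as poly(A) libraries (SMARTer stranded kit) and mapped by the authors to the FGSC A4 transcriptome in CLC Genomics Workbench, with up to a few hits per read. For each gene and library the authors deposited unique gene reads, raw counts, and RPKM, in which reads are divided by gene length and mapped reads. The deposited p-value column comes from the authors' own test between the strains and was not used here beyond the selection it stands for. Mapped totals were derived from reads, length and RPKM, and at least 98.5% of genes lay within 1 read of them. A supplementary sheet of mapped reads gives the totals of celAΔ replicate 2 and control replicate 2 in each other's place. The columns were used as labelled in the deposited table, where the celA and argB reads of both libraries fit their strain. Unique reads on listed genes numbered 498729 to 1138366 per library. All reads of the 51 genes were unique. Intervals and bounds cover counting error only.

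edgeR 4.0.16 in R 4.3.3 was run as a quasi-likelihood test (two-sided) on the unique reads of all 1375 genes, with library sizes set to the mapped totals, without further factors, and 3 libraries per strain. P-values were adjusted by Benjamini-Hochberg over the table. A gene was called at an adjusted p under 0.05 with a log2 FC above 1 or below -1. Standard errors were obtained by dividing the size of the log2 FC by the square root of F. Genes at 0 reads in every library of a strain were given as bounds against 3 reads per library. The study describes its replicates as biological, with all celAΔ cultures from 1 transformant, and the biological coefficient of variation was 46.8%. Alternatives were limma 3.58.1 on log2(RPKM + 1) and log2(RPKM + 0.1), limma voom, DESeq2 1.42.0, TMM factors, median scaling over the listed genes, a mean of at least 10 reads (1218 genes), the replicate number as a block, adjustment over all 10516 loci, and each library left out in turn.

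Every member of the word rule is named, ordered by role, as are the other listed genes of the cytoskeleton and mitosis and of signalling, apart from some signalling genes that are not reported here. The members and lists were chosen with earlier results of these data known. Symbols, chromosomes and neighbours came from assembly ASM1142v1, in which all 51 genes were matched, and since the mapping used another annotation, no coordinates are given. No sequences were analysed here. Python 3.11.15 (scipy 1.17.1, pandas 2.3.3, numpy 2.4.6) was used for tables and matplotlib 3.10.9 for plots.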

Additional observations from a re-analysis of the deposited data

How the results depend on the processing

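No gene of the 51 changed direction under any alternative run. The number past the threshold was 49 with edgeR, beside 93.6% of all listed genes. It was 22 with DESeq2, beside 69.75%, and 20 with median scaling over the listed genes, beside 68.15%. In each of these, 3 of the 32 lower genes passed. Both scale on genes that had been selected for a change, and so do the TMM factors. After adjustment over all assembly loci it was 11 (5 higher and 6 lower), beside 38.1%. With limma on log2(RPKM + 1) it was 42, beside 89.82%. With limma on log2(RPKM + 0.1), voom and TMM factors it was 49, beside 98.11%, 97.75% and 91.71%. With a mean of at least 10 reads it was 46, when 3 genes fall out, beside 93.76% of the 1218 genes kept. When each library was left out in turn, 34 to 47 genes passed, beside 72.15% to 96.07% of all listed genes. In these fits 11 to 18 of the 51 genes passed as higher and 22 to 29 as lower. The 11 higher ones were found without control replicate 1 and without control replicate 2. Of the 49 calls, 24 were kept in each of these fits and 25 were lost in at least 1 of them. Without control replicate 3, the calls of BimC, Clb3, DNA polymerase alpha and ANIA_10895 were lost and those of ANIA_00314 and ANIA_05480 gained. The median log2 FC of the helicase and Srb5, which moved in opposite directions, was -0.07 with all libraries. It was 0.60 with DESeq2 and 0.61 with median scaling, settings that moved all listed genes up by a median of 0.68 and 0.67. It was 0.0042 without control replicate 3, and the other fits without 1 library gave down to -0.15. What moved it without control replicate 3 was not tested. Same-numbered libraries of the strains did not deviate together (correlations over 1168 genes of 0.0935, -0.110 and 0.0897). With the replicate block 43 genes passed, beside 91.49% of all listed genes, 8 calls being lost and 2 gained. The numbers do not pair the samples. Depth limits ANIA_10895, ANIA_08653 and ANIA_09226, which had under 10 reads in every library.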
